A study of Mus musculus with 9 samples.

Results

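Inhibitory interneurons release GABA onto nearby neurons and are divided into classes by the peptides and calcium-binding proteins they make. The 10 genes described here are Gad1, Gad2, Pvalb, Sst, Vip, Npy, Cck, Calb2, Lhx6 and Reln, chosen by name as the probe sets of the value table that carry 1 of these symbols alone. All 10 were found, each with a single probe set, among 19938 genes. They were followed in brain RNA on 9 arrays (GeneChip Mouse Gene 1.0 ST), with 3 arrays from the HPYD group, 3 from the model group and 3 from the control group. The HPYD group was APP/PS1 transgenic mice that received the peptide HPYD at 33 mg/mL through the nose, 5 μL per day for 30 days. The model group was APP/PS1 transgenic mice that received saline in the same way. The control group was wild type C57/6J mice, also given saline. By the paper's account they matched the transgenic mice in genetic background and age. Both transgenic groups consisted of mice purchased at the age of 8 months, and their transgenes encode the amyloid precursor protein and presenilin. Per the paper, brains of all groups were taken once the Morris water maze test had ended. The sources used here do not name the promoter that drives the transgenes. Brain is the only tissue the labels name, without the region or the piece, and nothing in the labels or the paper says whether the arrays came from different mice. Therefore the p-values rest on the spread of these samples alone, which may be technical, and the number of arrays limits the precision.

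The genes fall into 4 kinds. Gad1 and Gad2 encode the enzymes that make GABA from glutamate and are found in nearly all GABAergic neurons, those of the striatum and cerebellum included. Pvalb and Calb2 encode the calcium-binding proteins parvalbumin and calretinin, whereas Sst, Vip, Npy and Cck encode the neuropeptides somatostatin, vasoactive intestinal peptide, neuropeptide Y and cholecystokinin. Lhx6 is a transcription factor of the interneurons that arise in the medial ganglionic eminence, the source of most Pvalb and Sst cells. Reln encodes reelin, a secreted protein that positions migrating neurons in development. Several of these genes are not confined to interneurons: Pvalb is also made by cerebellar Purkinje and molecular layer cells and by fast skeletal muscle, Calb2 and Reln by cerebellar granule cells, Calb2 by neurons of the thalamus and olfactory bulb, and Cck by many excitatory neurons of the cortex. In whole tissue, fewer cells of a type and less RNA per cell cannot be told apart.

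Sst carries a well known regulatory element, the cyclic AMP response element, to which CREB binds. The promoters of 3 of the 4 peptide genes are shown because they hold its letters. That of Npy is left out because TGACG was on neither of its strands. Each run is the 100 bases before the start of the gene in RefSeq (GRCm38.p6), on the gene's strand, with TGACG or its reverse complement CGTCA in capitals. They come from chr16:23890845-23890944 on the minus strand, chr10:5639118-5639217 on the plus strand and chr9:121495695-121495794 on the minus strand.
Sst: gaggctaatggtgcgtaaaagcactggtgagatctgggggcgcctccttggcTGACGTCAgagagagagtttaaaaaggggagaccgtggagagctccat
Vip: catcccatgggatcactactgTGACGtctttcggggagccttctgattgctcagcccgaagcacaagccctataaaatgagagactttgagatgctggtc
Cck: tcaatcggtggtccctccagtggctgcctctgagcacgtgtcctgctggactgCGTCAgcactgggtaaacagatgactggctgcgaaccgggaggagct
In Sst the element is the full palindrome TGACGTCA, in which both 5-letter words overlap, 48 bases before the start. Vip and Cck carry the 5-letter word alone, 79 and 47 bases before the start. RefSeq promoters from 250 bases before to 50 bases after the start were matched for 9 of the 10 genes. The word TGACG was found on either strand in 4 of these 9 genes (Gad2, Sst, Vip and Cck) and in 23.0% of all 27025 genes with a promoter in the table, and TGACGTCA in Sst alone of the 9 and in 2.03% of all genes. These matches describe letters, not bound sites.

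Before the genes are described, 1 array has to be named. The array labelled HPYD 3 went against its label in the checks of the transgenic mice. App was 12.98, 13.01 and 12.53 in HPYD arrays 1, 2 and 3, 12.99, 12.95 and 13.02 in the model arrays, and 12.57, 12.56 and 12.62 in the control arrays (log2 signal). Prnp was 11.52 in the array labelled HPYD 3, against 12.42 to 12.55 in the other HPYD arrays and the model arrays and 11.76 to 11.81 in the control arrays. Xist, the RNA that silences an X chromosome in female cells, was 5.22 there, against 11.18 to 11.78 and 5.20 to 5.69. This array therefore had control-like levels of the 3 genes, and the main comparisons with the HPYD group are also given without it. Xist was high in all 3 model arrays and in HPYD arrays 1 and 2 and low in all 3 control arrays, and neither the labels nor the paper give the sex of the mice. Genotype and sex therefore cannot be told apart in the comparisons with control. Signals are the deposited log2 values, on which a difference of 1 is a doubling. They ranged from 2.37 to 14.01 over the whole table, and array medians lay between 6.69 and 6.82. The signals of different genes were not set against each other, because probes differ in their response.

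The dominant pattern among the interneuron genes was a split by array and not by group. In the array labelled HPYD 3 and in model array 2, Sst, Vip, Npy, Cck and Lhx6 had their 2 lowest signals of the 9 arrays, and Pvalb, Calb2 and Reln had their 2 highest. The pair of arrays was picked after the values were seen, so the split is a description and was not tested. Over all 19938 genes, 14.1% had their 2 lowest signals in these arrays and 14.2% their 2 highest, against 5 and 3 of the 10 interneuron genes. The 9 arrays differed more for most of these genes than for most genes measured: the SD over the 9 arrays exceeded that of 91.2% to 99.1% of all genes, except for Gad1, with an SD of 0.14 that exceeded 57.5%.

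**Figure D1:**
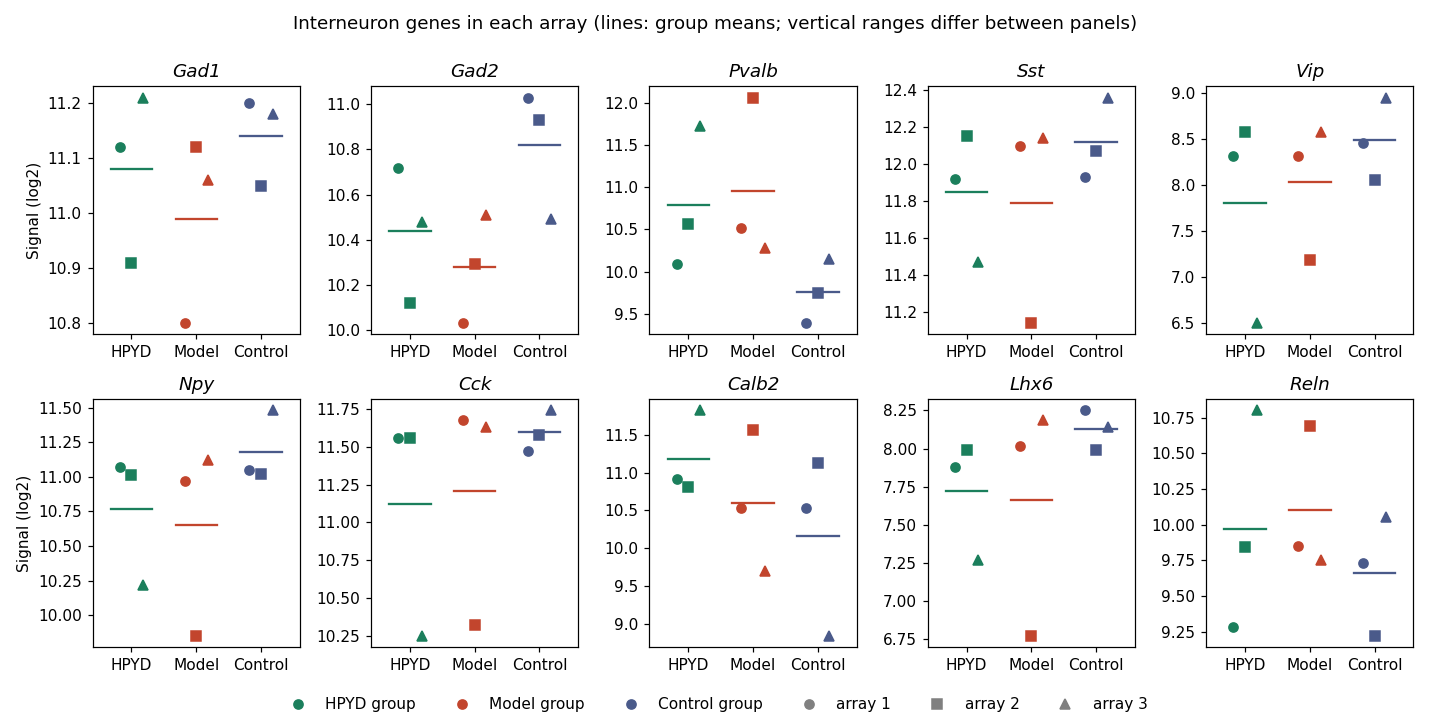
Signal (log2, vertical axis) of the 10 interneuron genes in each array, by group (horizontal axis); symbols stand for array 1, 2 and 3, lines for group means, and vertical ranges differ between panels. The triangle of the HPYD group and the square of the model group lie lowest for Sst, Vip, Npy, Cck and Lhx6 and highest for Pvalb, Calb2 and Reln.

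Among the peptides, Sst was 11.92, 12.15 and 11.47 in HPYD arrays 1 to 3, 12.10, 11.14 and 12.14 in the model arrays, and 11.93, 12.07 and 12.36 in the control arrays. Somatostatin marks the interneurons that inhibit the dendrites of pyramidal cells. Apart from model array 2 and the array labelled HPYD 3, the other 7 arrays lay between 11.92 and 12.36, and the groups overlapped. Npy, found in part of the Sst cells and in neurogliaform cells, was 11.07, 11.01 and 10.22 in the HPYD arrays, 10.97, 9.85 and 11.12 in the model arrays, and 11.05, 11.02 and 11.48 in the control arrays. Vip, which marks interneurons that mostly inhibit other interneurons, was 8.32, 8.58 and 6.50 in the HPYD arrays, 8.32, 7.18 and 8.58 in the model arrays, and 8.46, 8.06 and 8.95 in the control arrays. The lowest Vip signal was that of the array labelled HPYD 3, a difference of −1.99 from the control mean, whereas that of model array 2 was −1.31. Cck was 11.56, 11.56 and 10.25 in the HPYD arrays, 11.68, 10.32 and 11.63 in the model arrays, and 11.47, 11.58 and 11.74 in the control arrays. Cck thus had 7 arrays within 11.47 to 11.74 and the same 2 arrays more than 1 log2 unit below. Control array 3 had the highest signal of the 9 for all 4 peptides.

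Lhx6 followed the peptides. It was 7.88, 7.99 and 7.27 in HPYD arrays 1 to 3, 8.02, 6.77 and 8.19 in the model arrays, and 8.25, 7.99 and 8.14 in the control arrays. The control arrays differed by 0.26 at most, and model array 2 had a difference of −1.36 from their mean. The array labelled HPYD 3 had a difference of −0.85, and the other 4 transgenic arrays lay between −0.25 and 0.07.

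The calcium-binding proteins and reelin went the other way in the same arrays. Pvalb, which marks fast-spiking interneurons, was 10.09, 10.56 and 11.73 in the HPYD arrays, 10.52, 12.06 and 10.28 in the model arrays, and 9.39, 9.74 and 10.15 in the control arrays. All 3 model arrays lay above all 3 control arrays, the only instance of groups that did not overlap among the 10 genes in any comparison. Calb2 was 10.92, 10.81 and 11.82 in the HPYD arrays, 10.53, 11.56 and 9.70 in the model arrays, and 10.53, 11.13 and 8.84 in the control arrays. The control arrays alone ranged from 8.84 to 11.13, wider than the 3 group means, so that no group stood apart. Reln, which in the adult marks neurogliaform and Cajal-Retzius cells, was 9.28, 9.84 and 10.80 in the HPYD arrays, 9.85, 10.69 and 9.75 in the model arrays, and 9.73, 9.22 and 10.05 in the control arrays. Outside the array labelled HPYD 3 and model array 2, its signals in transgenic arrays (9.28 to 9.85) lay within the control range of 9.22 to 10.05.

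The enzymes of GABA synthesis did not share that split. Gad1, which makes most of the GABA of the brain, was 11.12, 10.91 and 11.21 in the HPYD arrays, 10.80, 11.12 and 11.06 in the model arrays, and 11.20, 11.05 and 11.18 in the control arrays. Gad2, whose enzyme is concentrated at nerve terminals, was 10.72, 10.12 and 10.48 in the HPYD arrays, 10.03, 10.29 and 10.51 in the model arrays, and 11.03, 10.93 and 10.49 in the control arrays. For both enzymes the 2 lowest arrays were HPYD array 2 and model array 1, a position that 5.48% of all genes shared. The control and model groups overlapped for Gad2, because model array 3, at 10.51, lay just above control array 3, at 10.49.

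Markers of brain regions, of glia and of other tissues moved with these signals. A list of 9 cerebellar neuron genes (Pvalb left out) had a median difference from the control mean of 1.39 in HPYD array 2 and 3.52 in the array labelled HPYD 3, with −0.23 in HPYD array 1. In model arrays 1, 2 and 3 the difference was 0.61, 3.54 and 0.60. All 9 cerebellar genes had their 2 highest signals in the array labelled HPYD 3 and in model array 2, and Gabra6, a GABA receptor subunit of cerebellar granule cells, was 11.29 and 11.35 there, against 4.54 to 8.20 in the other 7 arrays. The mean log2 signal of the list ranged from 7.61 to 11.33 in the HPYD group, 8.53 to 11.39 in the model group and 7.76 to 7.80 in the control group. Genes of cortical and hippocampal excitatory neurons were at −0.98 and −1.01 in these 2 arrays, where 10 of 11 had their 2 lowest signals, and between −0.21 and 0.01 in the other 4 transgenic arrays. Thus genes known from excitatory cells of the cortex were low in the same arrays as Sst, Vip, Npy, Cck and Lhx6, and cerebellar genes were high in the same arrays as Pvalb, Calb2 and Reln. Glial genes moved in these arrays too. All 7 genes of homeostatic microglia had their 2 lowest signals there. Their medians were −0.63 in the array labelled HPYD 3 and −0.37 in model array 2, against 0.20 to 0.39 in the other 4 transgenic arrays. Of 8 astrocyte genes, 5 had their 2 highest signals there, and the medians of the list were 0.23 and 0.25, against 0.06 to 0.12. Slc1a2 of that list went the other way, with its 2 lowest signals there. Gfap, at 9.65 and 10.07, lay below the other 4 transgenic arrays. The median of a list of 8 genes of neurons of all kinds stayed between −0.07 and 0.08 in all 9 arrays, but its genes moved in opposite ways. In the array labelled HPYD 3 and model array 2, Snap25, Syt1 and Syp had their 2 lowest signals, and Stmn2, Nefl and Nefm their 2 highest. The cerebellar markers entered the fits of the interneuron genes only as a covariate. Their level was highest in the same 2 arrays, so the fits cannot separate it from other differences of these arrays. The part of the excitatory and glial markers was not tested.

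**Figure D2:**
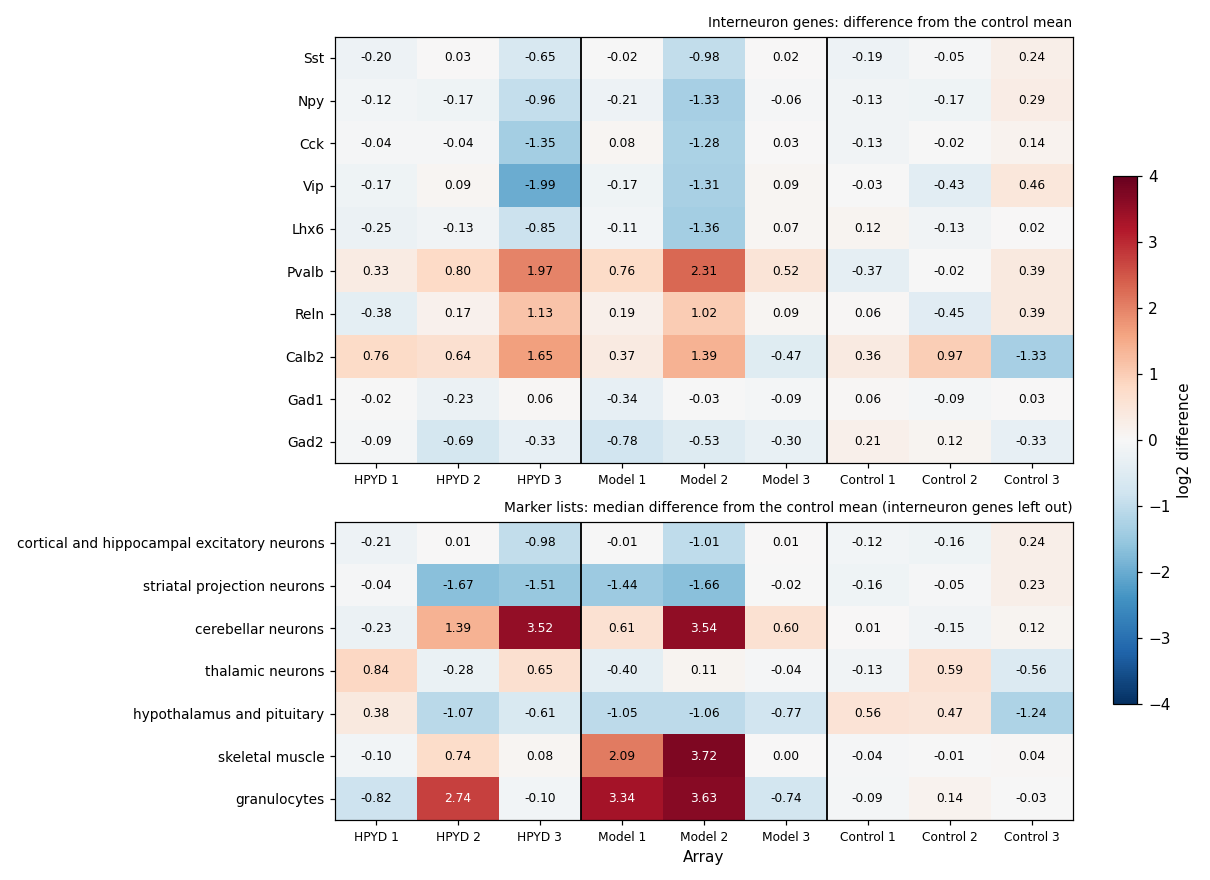
Log2 difference from the control mean in each array (columns, HPYD, model and control group from left to right), for the 10 interneuron genes (upper panel) and as the median of 7 marker lists without those genes (lower panel). The columns HPYD 3 and Model 2 are blue for Sst to Lhx6 and for excitatory neurons and red for Pvalb to Calb2 and for cerebellar neurons, at 3.52 and 3.54.

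Genes of striatal projection neurons, which are GABAergic and use Gad1 and Gad2, split the arrays differently. Relative to the control mean their median was −0.04, −1.67 and −1.51 in HPYD arrays 1 to 3 and −1.44, −1.66 and −0.02 in model arrays 1 to 3, with all 6 genes below all control arrays in the 4 low arrays. The mean log2 signal of the list ranged from 8.49 to 10.08 in the HPYD group, 8.41 to 10.06 in the model group and 9.94 to 10.32 in the control group. The 4 arrays with low striatal genes were the 4 lowest for Gad2, at 10.03 to 10.48, although control array 3, with a high striatal level, stood next to them at 10.49. For Gad1 only HPYD array 2 and model array 1 were low, and the array labelled HPYD 3, where cerebellar genes were high, had the highest Gad1 signal of all. The striatal level entered the fits only as a covariate, and its part in these signals was not tested apart from other differences of the same arrays.

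Pvalb is also a gene of fast skeletal muscle, so it was set beside a list of 23 muscle genes in each array. Relative to the control mean, the median of the muscle genes was −0.10, 0.74 and 0.08 in HPYD arrays 1 to 3 and 2.09, 3.72 and 0.00 in model arrays 1 to 3. Pvalb was 0.33, 0.80 and 1.97 above the control mean in the same HPYD arrays and 0.76, 2.31 and 0.52 above it in the model arrays. In the array labelled HPYD 3, Pvalb had the second highest signal of the 9 arrays while muscle genes were at the control level and cerebellar genes 3.52 above it. In model array 2, where Pvalb was highest, both lists were raised. All 23 muscle genes exceeded all control arrays in model arrays 1 and 2, and 21 did in HPYD array 2. The mean log2 signal of the muscle list ranged from 6.34 to 7.29 in the HPYD group, 6.39 to 10.11 in the model group and 6.35 to 6.42 in the control group. Genes of granulocytes were also raised in model arrays 1 and 2 and HPYD array 2, by 3.34, 3.63 and 2.74.

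**Figure D3:**
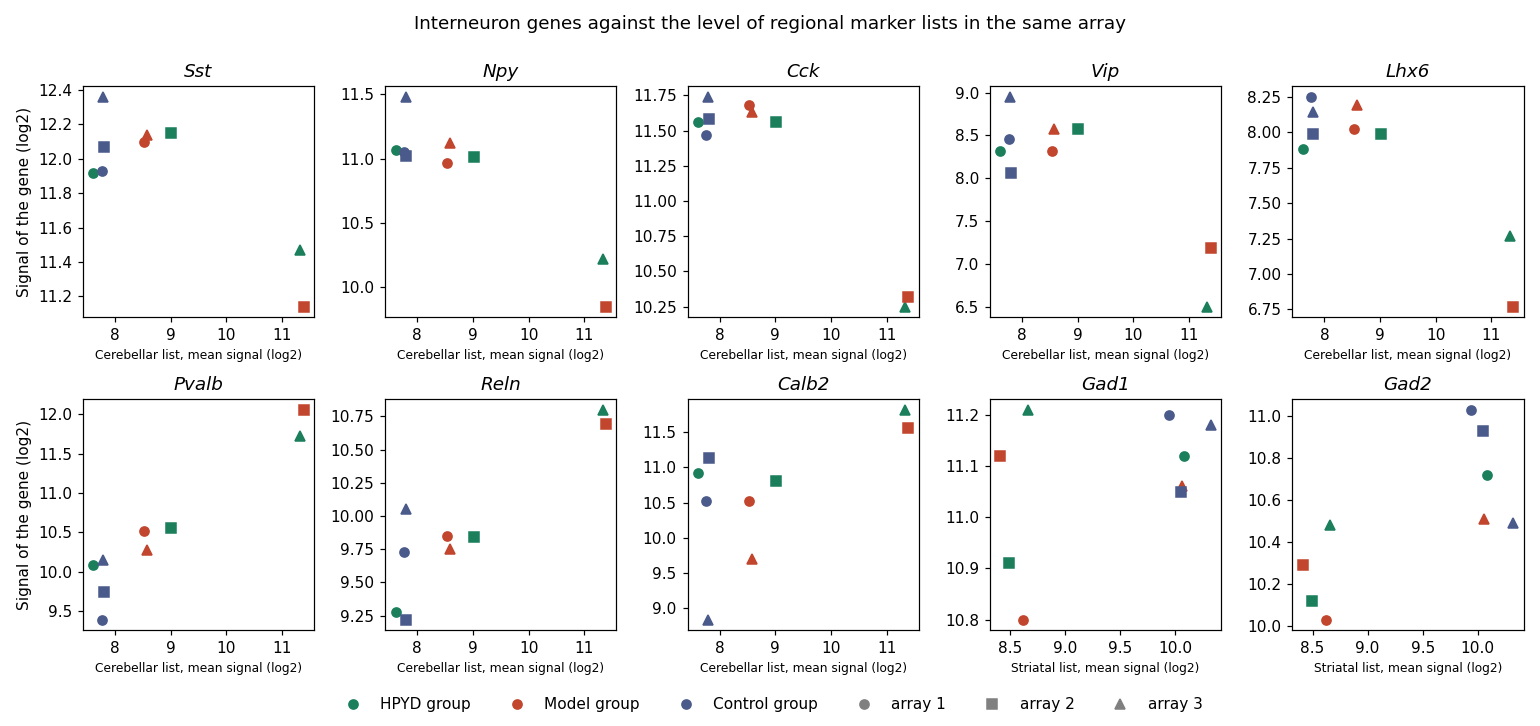
Signal of each interneuron gene (log2, vertical axis) against the mean log2 signal of cerebellar genes (first 8 panels) or striatal genes (Gad1 and Gad2) in the same array (horizontal axis); colours stand for groups and symbols for arrays 1 to 3. The 2 arrays at the right of the cerebellar panels are the array labelled HPYD 3 and model array 2, and they lie apart from the other 7 for Sst, Npy, Cck, Vip, Lhx6, Pvalb and Reln.

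Calb2 also varied with markers of other regions among the control arrays. In the control group, where the level of the cerebellar list differed least, Calb2 was 8.84 in array 3 against 10.53 and 11.13 in arrays 1 and 2. The thalamic list (Calb2 left out) was at −0.56 in control array 3, and at −0.13 and 0.59 in control arrays 1 and 2, and the list of hypothalamic and pituitary genes was at −1.24, against 0.56 and 0.47. The lowest array for Calb2 was therefore the lowest for the medians of both lists. The highest control array for Calb2 was the highest control array for the thalamic list. Gh and Prl of the hypothalamic and pituitary list went the other way: they were 10.88 and 9.02 in control array 3. In control arrays 1 and 2, Gh was 8.35 and 6.65 and Prl was 6.38 and 5.56. The HPYD and model arrays did not keep the order of the thalamic list. Calb2 was 9.70 in model array 3 with that list at −0.04, and 10.53 in model array 1 with it at −0.40. The thalamic list was highest in HPYD array 1, at 0.84, where Calb2 was 10.92. The part of these regions in the Calb2 signal was not tested.

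To determine whether the groups differed, limma's moderated test was run over all 19938 genes with the Benjamini-Hochberg adjustment. For model compared to control, none of the 10 interneuron genes passed an adjusted p under 0.05, and 0% of all genes did. The median difference of the 10 genes was −0.36, against −0.012 over all genes, with 3 genes higher and 7 lower by their means. At an unadjusted p under 0.05, which 4.92% of all genes passed, Gad2 was the only one of the 10: it averaged 10.28 ± 0.24 in the model group and 10.82 ± 0.29 in the control group (SD, n = 3 each), a limma log2 difference of −0.54 (SE 0.20, 95% confidence interval −0.999 to −0.077, adjusted p = 0.859). Pvalb averaged 10.95 ± 0.97 in the model group and 9.76 ± 0.38 in the control group, a limma log2 difference of 1.19 (SE 0.54, 95% confidence interval −0.06 to 2.45, adjusted p = 0.859). Its groups did not overlap, as for 9.52% of all genes, and an exact two-sided permutation test gave p = 0.1, the smallest that 3 against 3 arrays allow. Neither gene therefore differed beyond the spread between arrays at the adjusted threshold. Without the array labelled HPYD 3, 7 genes passed for model compared to control and 8 for HPYD compared to control, none of them among the 10. Xist and the Y-linked genes Uty, Kdm5d and Eif2s3y, which track sex, were 4 of the genes in both. The others in both were Ccl6, Prnp and Nnt, and Tyrobp passed for HPYD compared to control alone. Nnt differed by −0.92 for model and by −1 for HPYD, each compared to control. Whether the groups matched in genetic background, as the paper states, was not tested.

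The other 8 differences between model and control were each less than 2 times their standard errors. By limma, Npy differed by −0.53 (SE 0.36), Lhx6 by −0.47 (SE 0.36), Vip by −0.46 (SE 0.58), Cck by −0.39 (SE 0.44) and Sst by −0.33 (SE 0.29). Reln and Calb2 both differed by 0.43 (SE 0.41 and 0.65), and Gad1 by −0.15 (SE 0.11). The peptides spread mainly through 1 array of the model group, and the SD of Cck was 0.77 in the model group and 0.14 in the control group. Without model array 2 the median difference of the 10 genes was −0.03, Sst differed by −0.0019, Vip by −0.04 and Lhx6 by −0.02. Without that array Cck turned to 0.06 and Calb2 to −0.05, Pvalb differed by 0.64 in place of 1.19, and Gad2 stayed at −0.54.

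For HPYD compared to model, the question was whether the peptide changed these genes in the transgenic mice. None of the 10 genes passed the adjusted threshold or an unadjusted p under 0.05, which 0% and 1.97% of all genes did, and no gene had groups that did not overlap, against 3.22% of all genes. The median difference was 0.06, against 0.016 over all genes. Calb2 averaged 11.18 ± 0.55 in the HPYD group and 10.60 ± 0.93 in the model group (SD, n = 3 each), with a limma log2 difference of 0.59 (SE 0.65, 95% confidence interval −0.92 to 2.09, adjusted p = 1). That difference was 0.27 without the array labelled HPYD 3, 0.14 without model array 3, 1.07 without model array 2 and 1.67 without the 3 arrays with raised muscle genes. Vip averaged 7.80 ± 1.14 in the HPYD group and 8.03 ± 0.75 in the model group, a limma difference of −0.23 (SE 0.58, 95% confidence interval −1.56 to 1.11). The other 8 differences lay between −0.16 for Pvalb and 0.17 for Gad2, and the intervals leave room for changes of more than 1 log2 unit in either direction for Pvalb and Vip. Each group held 1 of the arrays with high cerebellar genes, so that leaving out either one alone moved the result: without the array labelled HPYD 3 the median difference was 0.26, with Vip at 0.42, Cck at 0.35, Pvalb at −0.63 and Reln at −0.54, and without model array 2 it was −0.06, with Vip at −0.65 and Cck at −0.53. Without both arrays the median difference was −0.04, Vip differed by −0.0004 and Cck by −0.09.

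For HPYD compared to control, again none of the 10 genes passed the adjusted threshold, and 0% of all genes did. None passed an unadjusted p under 0.05, against 3.24% of all genes, and no gene had groups that did not overlap, against 9.52% of all genes. The median difference of the 10 genes was −0.32, against 0.012 over all genes, with 3 genes higher and 7 lower by their means, and it was −0.093 without the array labelled HPYD 3. This comparison shares its control arrays with that of model and control, so the 2 are given side by side and were not correlated. Pvalb averaged 10.79 ± 0.84 in the HPYD group and 9.76 ± 0.38 in the control group (SD, n = 3 each), a limma log2 difference of 1.03 (SE 0.54, 95% confidence interval −0.22 to 2.29, adjusted p = 0.86). Calb2 averaged 11.18 ± 0.55 in the HPYD group and 10.16 ± 1.19 in the control group, a limma difference of 1.02 (SE 0.65, adjusted p = 0.86), and Gad2 averaged 10.44 ± 0.30 and 10.82 ± 0.29, a difference of −0.37 (SE 0.20, adjusted p = 0.86). Without the array labelled HPYD 3, Pvalb differed by 0.57, Calb2 by 0.70 and Gad2 by −0.39, while Vip, at −0.69 with all arrays, was at −0.04 and Cck, at −0.47 with all arrays, was also at −0.04. Reln differed by −0.10 without it and by 0.31 with all arrays. An F test over the 3 groups called 0% of all genes and none of the 10, with adjusted p between 0.939 and 0.941.

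**Figure D4:**
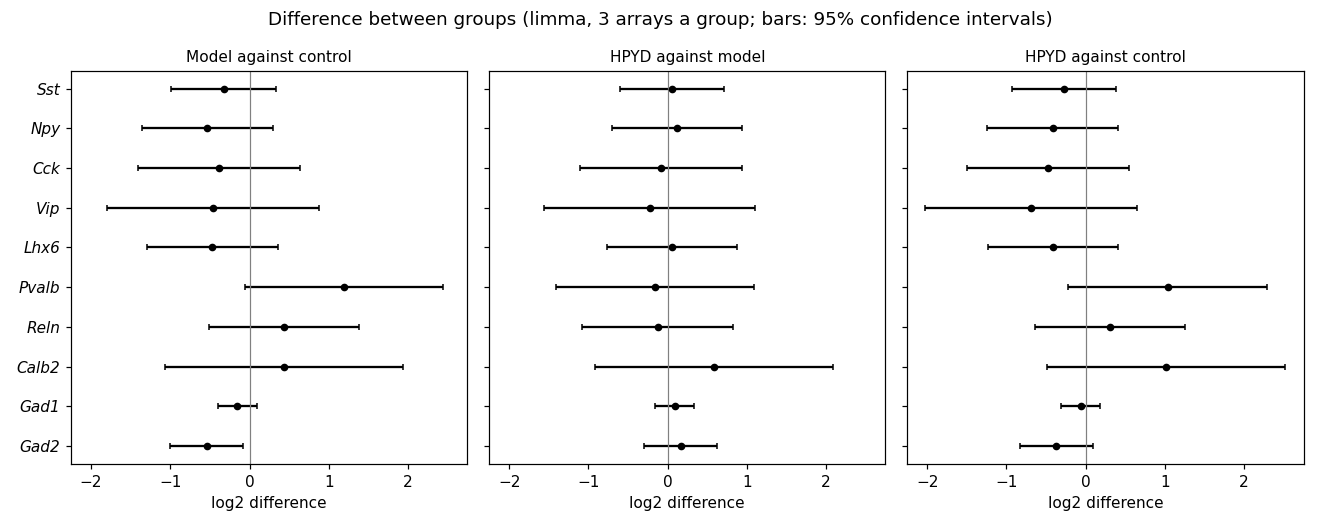
Log2 difference (horizontal axis) of the 10 interneuron genes for model against control, HPYD against model and HPYD against control; points are limma estimates from 3 arrays a group and bars 95% confidence intervals. Only the interval of Gad2 in the first panel leaves out 0, at −0.999 to −0.077, with an adjusted p of 0.859.

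The same comparisons were fitted with the level of a marker list in each array as a covariate. With the cerebellar level, the median difference of the 10 genes was 0.03 for model compared to control and 0.07 for HPYD compared to control, and Pvalb differed by 0.32 and 0.25. The differences of Sst, Vip, Npy, Cck and Lhx6 for model compared to control turned to values from 0.01 for Npy to 0.39 for Vip. With the striatal level, Gad2 differed by −0.31 for model compared to control and by −0.16 for HPYD compared to control. Muscle level as a covariate left Pvalb at 0.37 for model compared to control and at 0.90 for HPYD compared to control. None of the 10 genes passed the adjusted threshold in these fits, and the cerebellar and striatal covariates were chosen after the data were seen. The cerebellar level was highest in the array labelled HPYD 3 and model array 2, which define the split. Its fits therefore do not test a cerebellar part in the split.

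The receptors of the 4 peptides were followed as a list of 14 genes. None passed the adjusted threshold in any comparison, and 13 of 14 averaged lower in the model group compared to control, with a median difference of −0.27. Of the 14, 8 had their 2 lowest signals in the array labelled HPYD 3 and model array 2, among them receptors of all 4 peptides. Sstr2, a somatostatin receptor of cortical and limbic neurons, was 8.81, 8.76 and 7.56 in the HPYD arrays, 9.01, 7.61 and 8.98 in the model arrays, and 9.13, 8.98 and 9.50 in the control arrays. Both receptors of vasoactive intestinal peptide differed from each other over the arrays. Vipr1 was 7.78, 7.90 and 6.98 in the HPYD arrays, 7.83, 6.88 and 8.06 in the model arrays, and 7.93, 7.78 and 8.36 in the control arrays. Vipr2 was 6.92, 6.63 and 8.01 in the HPYD arrays, 6.13, 8.06 and 6.70 in the model arrays, and 6.70, 6.77 and 5.82 in the control arrays. Vipr1 was thus lowest where Vipr2 was highest, and these 2 receptors were named after their values were seen. No detection threshold was set, and Npy4r and Npy6r of the list reached only 4.87 and 3.53. Cckar, a cholecystokinin receptor best known from the gut and brainstem, did not follow Cck, but its signals lay near or below the array medians of 6.69 to 6.82. It was 6.46, 6.51 and 6.71 in the HPYD arrays, 6.48, 6.18 and 6.13 in the model arrays, and 6.59, 6.62 and 6.39 in the control arrays. Its limma difference was 0.30 for HPYD compared to model (SE 0.11, adjusted p = 1), with 9 of 14 receptors higher by their means in that comparison. Without the array labelled HPYD 3 the difference of Cckar was 0.23 (SE 0.12, adjusted p = 1), and 12 of 14 receptors were higher by their means.

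Transcription factors of interneurons other than Lhx6 were followed as a list. Of 15 measured, 13 averaged lower in the model group compared to control, and 13 in the HPYD group compared to control, with median differences of −0.20 and −0.18. None passed the adjusted threshold. The signals of 6 did not overlap and were lower for model compared to control, and those of 7 for HPYD compared to control, beside 9.52% of all genes in either direction in each comparison, whereas Lhx6 overlapped in both. Without the array labelled HPYD 3, 13 factors averaged lower for HPYD compared to control, with a median difference of −0.07, and 7 did not overlap and were lower, beside 15.4% of all genes. For 9 of the 15 the 2 lowest arrays were the array labelled HPYD 3 and model array 2, and 0 had them as the 2 highest. Dlx6, a homeobox gene of GABAergic neurons of the forebrain, was 7.05, 6.54 and 6.05 in the HPYD arrays, 6.74, 5.77 and 7.20 in the model arrays, and 7.48, 7.35 and 7.55 in the control arrays. All 6 arrays labelled HPYD or model lay below all 3 control arrays, among them the array labelled HPYD 3, whose check genes were control-like. The limma difference was −0.89 for model compared to control (SE 0.36, adjusted p = 0.859). Lhx8, a factor of cholinergic and some GABAergic neurons of the basal forebrain, was 6.10, 5.92 and 5.87 in the HPYD arrays, 5.89, 5.71 and 6.10 in the model arrays, and 6.77, 6.57 and 6.14 in the control arrays. Its limma difference was −0.59 for model compared to control (SE 0.17, adjusted p = 0.859) and −0.53 for HPYD compared to control (SE 0.17, adjusted p = 0.86), or −0.49 without the array labelled HPYD 3 (SE 0.19, adjusted p = 1). Control array 3 lay only just above the arrays labelled HPYD or model for Lhx8, whereas it was the highest of all for Dlx6. The signals of Lhx8 lay near or below the array medians.

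**Figure D5:**
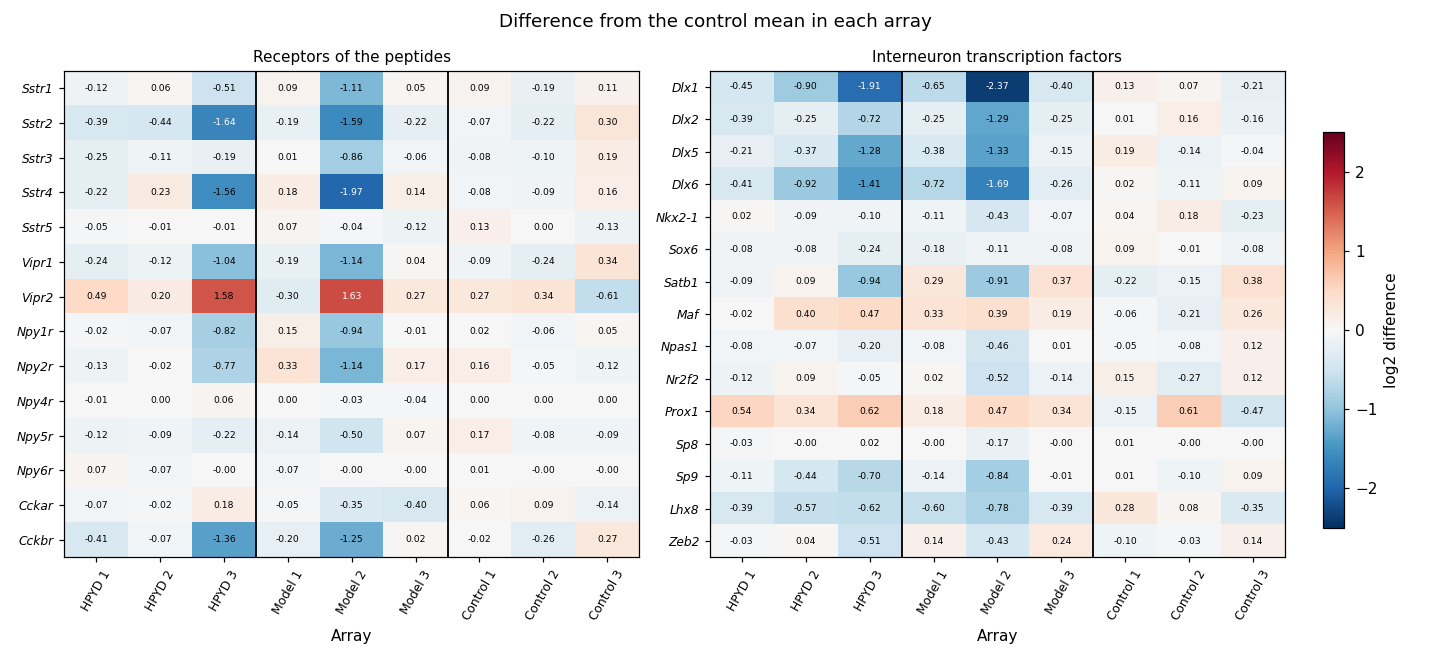
Log2 difference from the control mean in each array (columns, HPYD, model and control group from left to right) for 14 receptors of the peptides (left) and 15 interneuron transcription factors (right). The columns HPYD 3 and Model 2 are blue for most of the genes, as for 8 receptors and 9 factors whose 2 lowest signals lie there, and red for Vipr2.

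Another 24 genes of interneuron peptides and markers included none past the adjusted threshold, with 7 higher and 17 lower by their means for model compared to control. The 2 lowest signals of 6 of them and the 2 highest of 5 lay in the array labelled HPYD 3 and model array 2. Erbb4, a neuregulin receptor of Pvalb interneurons, was 10.12, 10.15 and 9.85 in the HPYD arrays, 10.01, 9.75 and 10.12 in the model arrays, and 10.36, 10.17 and 10.26 in the control arrays, a limma difference of −0.30 for model compared to control (SE 0.12, adjusted p = 0.859). Cox6a2, a subunit of cytochrome oxidase found in skeletal muscle and in Pvalb interneurons, was 8.17, 8.27 and 7.53 in the HPYD arrays, 8.65, 9.56 and 8.17 in the model arrays, and 7.91, 8.16 and 8.15 in the control arrays. Its order differed from that of Pvalb: the array labelled HPYD 3, where Pvalb was second highest, had the lowest Cox6a2 signal. Both were highest in model array 2, where muscle genes were raised by 3.72.

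Some of the genes that package, carry and break down GABA stood closer to Gad1 and Gad2, and others did not. Of 5 measured, none passed the adjusted threshold, all 5 averaged lower in the model group compared to control, and 3 had their 2 lowest signals in HPYD array 2 and model array 1. Slc32a1, the transporter that loads GABA into vesicles, was 8.63, 8.26 and 8.87 in the HPYD arrays, 8.10, 8.76 and 8.61 in the model arrays, and 8.71, 8.63 and 8.60 in the control arrays, and was named after its values were seen. Its 2 highest signals lay in the array labelled HPYD 3 and model array 2. Abat, the enzyme that breaks down GABA, was 11.90, 11.58 and 11.88 in the HPYD arrays, 11.50, 11.93 and 11.66 in the model arrays, and 11.90, 11.88 and 11.62 in the control arrays. Both transcripts were therefore lowest in the arrays in which Gad1 and Gad2 were lowest. Slc6a13 of the same list was not: it was 9.58 in HPYD array 2 and 9.57 in model array 1, near its highest signal of 9.63. Slc6a11 was lowest in control array 3, at 11.13.

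On the side of the responding neurons, a list of 9 measured subunits of the GABA-A receptor was followed, which leaves out some subunits, Gabra6 among them. All 9 averaged lower in the model group compared to control, with a median difference of −0.35, and so did all 9 in the HPYD group, whereas Gabra6 differed by 3.48 for model compared to control and, without the array labelled HPYD 3, by 0.96 for HPYD compared to control. None passed the adjusted threshold. Without the array labelled HPYD 3, 8 of the 9 averaged lower in the HPYD group, with a median difference of −0.17. By array, the median of the 9 was −0.01, −0.46 and −0.81 in HPYD arrays 1 to 3 and −0.39, −0.77 and −0.07 in model arrays 1 to 3, so that the 4 arrays with low striatal genes were low and HPYD array 1 and model array 3 were near the control level. Gabra2, a subunit of inhibitory synapses of the forebrain, was 9.73, 9.88 and 10.17 in the HPYD arrays, 10.44, 9.71 and 10.39 in the model arrays, and 11.06, 10.87 and 11.02 in the control arrays. All 6 arrays labelled HPYD or model lay below all 3 control arrays, among them the array labelled HPYD 3, whose check genes were control-like. The limma difference was −0.80 for model compared to control (SE 0.20, adjusted p = 0.859) and −1.06 for HPYD compared to control (SE 0.20, adjusted p = 0.86), or −1.18 without the array labelled HPYD 3 (SE 0.21, adjusted p = 0.449). The part of sex or genetic background in this difference was not tested. Of the 8 genes of reelin receptors and signalling, none passed the adjusted threshold, and median differences lay between −0.06 and −0.02 in the 3 comparisons, while Reln itself differed by 0.43 for model compared to control. Crkl, an adaptor of the reelin pathway, was 9.87, 9.88 and 10.14 in the HPYD arrays, 9.80, 10.19 and 9.84 in the model arrays, and 9.81, 9.69 and 9.79 in the control arrays, so that its 2 highest signals lay in the arrays with the highest Reln. Of the 8 genes, Vldlr and Crkl had their 2 highest signals there, and Dab1 and Src their 2 lowest.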

How the data were processed

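Brain RNA of 9 samples was measured on 1-colour GeneChip Mouse Gene 1.0 ST arrays, 3 in each group of the labels. The authors deposited a table of log2 values for 35556 probe sets. Per the labels' processing notes MAS5 was used (no version given); the sources used here give no normalization, filter or background correction, and the deposited values were taken as they are. Of the probe sets, 21789 had 1 gene symbol, 1621 several and 12146 none (unnamed here); the highest-mean probe set was kept for 999 genes with several, which left 19938 genes. Against RefSeq (GRCm38.p6), 21698 probe sets matched by Entrez identifier and 0 symbols changed.

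Groups were compared with limma 3.58.1 in R 4.3.3 (lmFit, eBayes, all 9 arrays, no covariate, 6 residual and 2.13 prior degrees of freedom) with Benjamini-Hochberg adjustment over all genes and a threshold of 0.05. For single genes an exact permutation test (two-sided) was added. On data simulated for model against control (19938 genes, 20 draws), the fit found 43.8%, 82.5% and 95% of genes planted with log2 changes of 0.5, 1 and 2, and called 172 others. The planted genes were picked at random, and the simulated noise had no shifts shared between genes. Most of the 10 interneuron genes varied more than most genes, so these shares do not hold for them. Alternatives were other normalizations, filters, variance models, covariates and tests, and leaving out each array. The 10 genes and the other gene lists were chosen with earlier results of these data known. Of each other list, the named genes were up to 4 with the smallest unadjusted p for model against control and HPYD against model; App, Prnp and Xist were named as checks of the labels. Listed genes without a single-symbol probe set are not reported.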

Additional observations from a re-analysis of the deposited data

How the results depend on the processing

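Under every alternative run, 0 of the 10 interneuron genes reached an adjusted p under 0.05 in each comparison. Gad2 passed for model compared to control at an unadjusted p under 0.05 (1 gene). Values here are log2 differences. Of the single-gene differences under the alternatives, 702 kept their direction and their side of the threshold. Only 1 became significant at the unadjusted threshold, and 77 turned in direction, all of these 77 short of the threshold. The cause of these turns was not tested. Many alternatives changed only the variance model, the test, the genes kept or arrays outside the comparison. Under those the differences could not turn, so the 702 do not measure stability. The numbers 1 to 3 of the labels did not pair the arrays, since deviations of arrays with the same number correlated between −0.32 and 0.18. Across numbers, HPYD array 1 correlated with model array 3 at 0.59. HPYD array 2 with model array 1, and the array labelled HPYD 3 with model array 2, each correlated at 0.588. Other pairs of HPYD and model arrays lay between −0.529 and 0.033. Fits with these pairs as blocks were not run. With the replicate number as a replicate block, 0 genes were called in each comparison. That block is balanced over the groups, so the differences equal those of the main fit and no direction could turn.

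Counts of genes called, 0 in the main comparisons, changed as follows. With only the arrays compared, 5 genes passed for model compared to control. Without model array 2 and the array labelled HPYD 3, which was chosen after seeing the data, 15 passed for model compared to control, 18 for HPYD compared to control and 16 in the F test. Leaving out single arrays gave 0 to 7 genes for model compared to control, 0 to 8 for HPYD compared to control and 0 to 7 in the F test, the highest each time without the array labelled HPYD 3. At an unadjusted p under 0.05 the counts were 980, 393 and 646 for model compared to control, HPYD compared to model and HPYD compared to control, and 546 in the F test. The methods name no test for the arrays themselves. Their general test, a one-way analysis of variance followed by Student-Newman-Keuls, gave 287, 137 and 241 without adjustment and 441 for the overall test, and 0 after Benjamini-Hochberg.

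Interneuron genes whose groups did not overlap numbered 2 for model compared to control and 1 for HPYD compared to control with arrays shifted to one median, beside 13.7% of all genes in each, and 1 for HPYD compared to control after quantile normalization, beside 12.6%. Leaving out single arrays gave 1 to 3, 0 to 3 and 0 to 3 for the 3 comparisons, beside 14.3% to 25.9%, 8.03% to 17.3% and 14.7% to 30.7% of all genes where an array of the groups compared was left out. For HPYD compared to model there were 3 without model array 2 and the array labelled HPYD 3, beside 18.6% of all genes, and for HPYD compared to control there were 2 without the 3 arrays with raised muscle genes, beside 20.4%. The construction with fewer arrays makes such a count easier to reach.

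For model compared to control, the median difference of the 10 genes was 0.039 with the muscle level as a covariate, 0.025 without the 3 arrays with raised muscle genes, −0.030 without model array 2 and the array labelled HPYD 3, 0.033 with the cerebellar level and −0.078 with the striatal level; leaving out single arrays gave −0.55 to −0.030. With the muscle level, Sst was at 0.071, Vip 0.061, Npy 0.017, Cck 0.14, Calb2 −0.39, Lhx6 0.15 and Reln −0.0046. Without the 3 arrays, Sst was at 0.020, Vip 0.093, Cck 0.030, Calb2 −0.47 and Lhx6 0.066. Without both arrays with high cerebellar genes, Cck was at 0.056 and Calb2 at −0.048. With the cerebellar level, Sst was at 0.064, Vip 0.39, Npy 0.011, Cck 0.325, Calb2 −0.20, Lhx6 0.054 and Reln −0.20. With the striatal level, Vip was at 0.11, Cck 0.076, Calb2 −0.305 and Reln −0.061. With array weights, Calb2 was at −0.17. Leaving out single arrays moved Cck between −0.63 and 0.056 and Calb2 between −0.23 and 0.92.

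For HPYD compared to model, the median difference was −0.039 with array weights, −0.14 with the muscle level, −0.18 without the 3 arrays with raised muscle genes and −0.040 without both arrays with high cerebellar genes; leaving out single arrays gave −0.059 to 0.26. With array weights, Pvalb was at 0.057, Sst −0.056, Npy −0.035 and Lhx6 −0.13. With the muscle level, Gad2 was at −0.010, Pvalb 0.53, Sst −0.28, Npy −0.34, Lhx6 −0.46 and Reln 0.24. Without the 3 arrays, Pvalb was at 0.63, Sst −0.44, Npy −0.48, Lhx6 −0.62 and Reln 0.29. Without both arrays, Sst was at −0.079, Npy −0.0059 and Lhx6 −0.17. Leaving out single arrays moved Gad1 between −0.0066 and 0.17, Pvalb between −0.63 and 0.39, Sst between −0.27 and 0.25, Vip between −0.65 and 0.42, Npy between −0.28 and 0.39, Cck between −0.53 and 0.35, Calb2 between 0.14 and 1.07, Lhx6 between −0.39 and 0.32 and Reln between −0.54 and 0.22.

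For HPYD compared to control, the median difference was −0.32 with all arrays, 0.071 with the cerebellar level and −0.024 with the striatal level; leaving out single arrays gave −0.40 to −0.093. With the cerebellar level, Sst was at 0.078, Vip 0.072, Npy 0.071, Cck 0.165, Lhx6 0.055 and Reln −0.25. With the striatal level, Npy was at 0.0091 and Reln −0.17. Without the 3 arrays with raised muscle genes, Gad1 was at 0.022, and without both arrays with high cerebellar genes, Reln was at −0.10. Leaving out single arrays moved Gad1 between −0.13 and 0.022 and Reln between −0.10 and 0.65.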

Other observations

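Some further genes of interneurons and of peptide signalling split the arrays in the same way, while Sstr5 and Tac1 did not. Sstr4, a somatostatin receptor of the cortex and hippocampus, was 9.78, 10.23 and 8.44 in the HPYD arrays, 10.18, 8.03 and 10.14 in the model arrays, and 9.92, 9.91 and 10.16 in the control arrays. Sstr5 lay between 5.39 and 5.65 in all 9 arrays, below the array medians. Syt2, a synaptotagmin of the terminals of Pvalb cells and of brainstem and cerebellar neurons, was 8.60, 8.90 and 10.07 in the HPYD arrays, 8.24, 10.24 and 8.52 in the model arrays, and 8.13, 8.01 and 8.57 in the control arrays. Kcnc1 and Kcnc2, potassium channel subunits of fast-spiking cells, went opposite ways in the same arrays: Kcnc1 was 10.39 in the array labelled HPYD 3 and 10.42 in model array 2, against 9.55 to 9.81 in the other 7, and Kcnc2 was 8.76 and 8.46, against 9.51 to 9.91. Tac1, which encodes substance P and is made by striatal neurons, was 10.34, 8.26 and 9.19 in the HPYD arrays, 8.65, 8.72 and 9.97 in the model arrays, and 10.80, 10.57 and 10.06 in the control arrays, so that all 4 arrays with low striatal genes lay below the other 5. These genes were named after their values were seen.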
